A study of Mus musculus with 4 samples.

Results

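The protein tyrosine phosphatase genes best known from T cells were followed by gene name, 8 of the 49671 genes measured: the receptor-type genes Ptprc and Ptprj, the SH2 domain genes Ptpn6 and Ptpn11, the closely related genes Ptpn1 and Ptpn2, and the cytosolic genes Ptpn22 and Ptpn7. RNA came from splenic CD3+ T cells, enriched on columns, of 4 female mice, which are labelled as biological replicates 1 to 4 and form 1 group. The mice were first-generation hybrids of Mus musculus (mus) and Mus musculus castaneus (cast), born to C57BL/6 mothers carrying a heterozygous Xist deletion and to Castaneus fathers, so that by the labels every autosomal gene, the 8 phosphatase genes among them, had a maternal C57BL/6 and a paternal Castaneus allele. Strain and parental origin of an allele cannot be told apart in this cross. All cells were cultured for 48 hours on plate-bound anti-CD3 at 1 µg/ml with soluble anti-CD28 at 10 µg/ml and with IMD-0354 at 2.5 µM, a small molecule that inhibits IKKβ, the kinase upstream of NF-κB. Ages were not given in the sources used here. Each gene was measured as RPKM, which is reads over both alleles scaled by gene length and sequencing depth, and as raw read counts of each allele. Cells without the inhibitor or without stimulation were not analysed here, so the values describe this 1 condition.

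Protein tyrosine phosphatases remove phosphate groups from tyrosines and thereby set, together with the tyrosine kinases, how strongly a T cell responds to its antigen receptor. CD45, the product of Ptprc, removes the inhibitory phosphate from the kinase LCK and so permits signalling, whereas most of the cytosolic family members dampen it. They do so at different points: at LCK and ZAP70 beside the receptor, at the JAK kinases below cytokine receptors, and at the MAP kinases further downstream.

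The members share a catalytic loop, the PTP signature motif, whose cysteine attacks the phosphate. For each of the 8 genes the longest coding sequence in GENCODE M21 that starts with methionine and holds the motif was taken. Each held it 1 time. The stretch of 33 coding bases that encodes it is printed for 7 of them, because it is the feature that makes these genes a family. Capitals mark the codon of the catalytic cysteine.
Ptprc: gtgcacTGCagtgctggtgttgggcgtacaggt
Ptprj: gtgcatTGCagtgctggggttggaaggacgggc
Ptpn6: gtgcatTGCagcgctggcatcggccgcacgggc
Ptpn11: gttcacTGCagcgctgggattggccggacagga
Ptpn1: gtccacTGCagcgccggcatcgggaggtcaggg
Ptpn22: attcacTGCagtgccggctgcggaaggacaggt
Ptpn7: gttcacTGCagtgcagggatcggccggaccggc
The 7 stretches all used the same cysteine codon, and 18 of the 33 bases were the same in all of them. Between genes, 21 bases (Ptpn6 and Ptpn22) to 28 bases (Ptpn11 and Ptpn7) were identical. An intron interrupted the stretch in 6 of the 8 genes, and it lay within 1 exon in Ptpn1 (chr2:167974204-167974236, plus strand) and Ptpn2. In mm10 the interrupted stretches fell within chr1:138080249-138080847 (Ptprc), chr2:90439971-90440635 (Ptprj), chr6:124722057-124724967 (Ptpn6) and chr5:121143608-121144540 (Ptpn11) on the minus strand. Those of Ptpn22 and Ptpn7 fell within chr3:103876727-103877326 and chr1:135139268-135141964 on the plus strand.

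Allelic reads numbered 30539711 to 34992012 per replicate. The T cell label was checked against markers. All 12 T cell markers exceeded 1 RPKM and summed to 396 to 438 RPKM per replicate. The 6 B cell markers summed to 4.74 to 11.1 RPKM, the 4 NK cell markers to 3.59 to 4.75 RPKM and the 5 erythroid markers to 1.63 to 9.30 RPKM. Most of the NK cell sum came from Eomes, with a mean of 3.93 RPKM, while Ncr1, Klrb1c and Klra8 had 0.089, 0.063 and 0.085 RPKM. The 7 myeloid markers, among which Lyz2 was the most abundant, summed to 77.2, 121, 54.0 and 44.3 RPKM in replicates 1 to 4, and 4 of the 7 had means of at least 1 RPKM. Lyz2 had 41.3, Cd68 14.6, Fcer1g 13.2 and Cd14 3.30 RPKM, while Csf1r, Itgam and Adgre1 had 0.689, 0.635 and 0.437 RPKM. No marker was at 0 in all replicates. Ptprc and Ptpn6 are also expressed in B cells and myeloid cells, and the part of these cells in the values below was not tested. In bulk RNA, fewer cells of a type and less RNA per cell cannot be told apart. Xist, for whose deletion the mothers were heterozygous, gave at least 99.9% of its allelic reads from Castaneus in every replicate.

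Ptprc was the most abundant of the phosphatases. The gene (ENSMUSG00000026395, chr1:138062861-138175708, minus strand) encodes CD45, the transmembrane phosphatase of all nucleated blood cells. It was present at 60.7, 71.0, 60.3 and 65.9 RPKM in replicates 1 to 4, with a mean of 64.5 ± 5.04 RPKM (SD, n = 4). This level was at the 96.3th percentile of the 11453 genes that averaged 1 RPKM or more. Ptprj (ENSMUSG00000025314, chr2:90429754-90580647, minus strand), which encodes the other receptor-type phosphatase, CD148, was the lowest of the 8. It was measured at 1.94, 1.99, 2.26 and 2.10 RPKM, with a mean of 2.07 ± 0.143 RPKM, at the 16.8th percentile. Per animal the level of Ptprc was 26.7 to 35.7 times that of Ptprj, with a mean ratio of 31.3 ± 3.70 (SD, n = 4), and replicate 3 had the smallest ratio.

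The genes of the SH2 domain phosphatases differed in level. Ptpn6 (ENSMUSG00000004266, chr6:124720707-124738714, minus strand) encodes SHP-1, which is recruited to phosphorylated inhibitory receptors. It was present at 36.2, 33.6, 27.2 and 34.3 RPKM, with a mean of 32.8 ± 3.92 RPKM. Ptpn11 (ENSMUSG00000043733, chr5:121130533-121191397, minus strand) encodes SHP-2, which binds PD-1 but also promotes RAS and MAP kinase signalling from growth factor receptors. It was measured at 10.1, 11.5, 9.84 and 10.1 RPKM, with a mean of 10.4 ± 0.773 RPKM (SD, n = 4). The ratio of Ptpn6 to Ptpn11 was 3.60, 2.91, 2.76 and 3.40 in replicates 1 to 4, so Ptpn6 was above Ptpn11 in 4 of 4 animals and their ranges did not overlap.

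Ptpn1 and Ptpn2 could not be separated by level. Ptpn1 (ENSMUSG00000027540, chr2:167932057-167979385, plus strand) encodes PTP1B, a phosphatase of the endoplasmic reticulum that acts on JAK kinases and on the insulin receptor. It was measured at 18.8, 19.1, 15.6 and 16.04 RPKM, with a mean of 17.4 ± 1.82 RPKM. Ptpn2 (ENSMUSG00000024539, chr18:67665511-67724595, minus strand) encodes TC-PTP, which dephosphorylates JAK and STAT proteins and LCK. It was measured at 15.3, 17.3, 16.1 and 16.2 RPKM, with a mean of 16.2 ± 0.817 RPKM (SD, n = 4). Ptpn1 was above Ptpn2 in 2 of 4 animals, and the ratio was 1.07 ± 0.121 (exact two-sided sign-flip permutation test of the log2 difference, p = 0.5).

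The remaining genes encode phosphatases that are largely restricted to blood cells. Ptpn22 (ENSMUSG00000027843, chr3:103859795-103912247, plus strand) encodes PEP, a partner of the kinase CSK that acts on LCK and ZAP70. It was present at 25.0, 28.4, 26.4 and 25.8 RPKM, with a mean of 26.4 ± 1.46 RPKM. Ptpn7 (ENSMUSG00000031506, chr1:135132700-135145317, plus strand) encodes HePTP, which binds and dephosphorylates MAP kinases. It was measured at 7.35, 7.60, 6.11 and 6.76 RPKM, with a mean of 6.95 ± 0.668 RPKM (SD, n = 4), close to the median of 6.72 RPKM over genes with at least 1 RPKM.

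By mean level the order was Ptprc, Ptpn6, Ptpn22, Ptpn1, Ptpn2, Ptpn11, Ptpn7 and Ptprj. Of the 7 neighbouring pairs in this order, the ranges over the 4 animals overlapped for Ptpn6 and Ptpn22 and for Ptpn1 and Ptpn2, and for no other pair. Ptpn6 was nevertheless above Ptpn22 within each of the 4 animals, by 1.03 to 1.45 times. By the same exact sign-flip permutation test, each pair except Ptpn1 and Ptpn2 gave p = 0.125. After Benjamini-Hochberg adjustment over the 7 pairs it was 0.146. The smallest p that 4 animals allow is 0.125, and the pairs were formed from the same levels, so the test cannot support the order. The levels varied little between animals. The coefficient of variation ran from 5.03% for Ptpn2 to 11.9% for Ptpn6, against a median of 11.4% over all genes with at least 1 RPKM. After rescaling each replicate to the same median, the ranges of 1 neighbouring pair overlapped in place of 2.

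**Figure D1:**
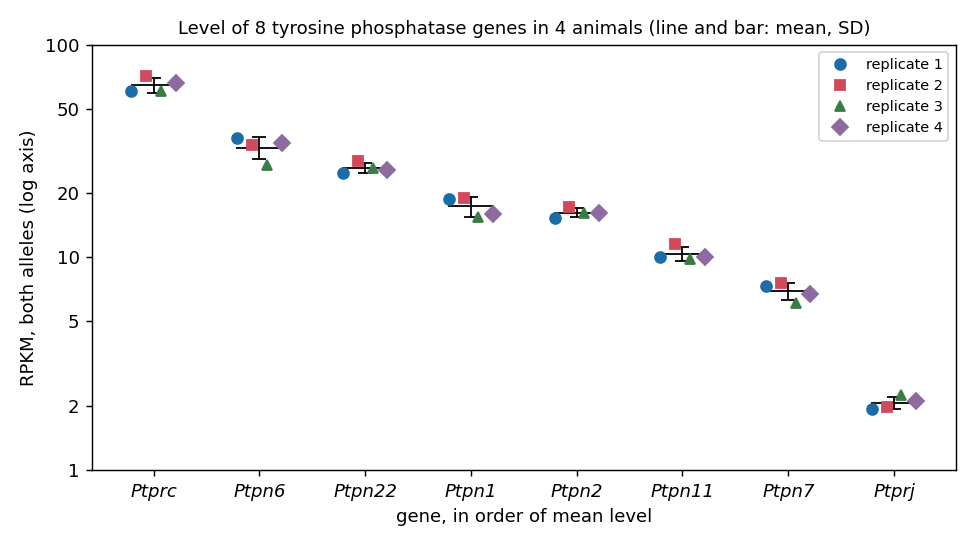
RPKM (log axis) of the 8 phosphatase genes in order of mean level, with 1 symbol per replicate and a line and bar for the mean and SD over 4 replicates. Ptprc lies between 60.3 and 71.0 RPKM and Ptprj between 1.94 and 2.26 RPKM, and the symbols of Ptpn1 and Ptpn2 overlap.

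The alleles were read with unequal precision, since only reads over a sequence difference between the strains can be assigned. Per RPKM and kilobase of merged exons, the median over 10268 autosomal genes was 53.4 allelic reads. The value was 77.6 for Ptprc, 59.1 for Ptpn7 and 57.7 for Ptpn11, but 27.3 for Ptpn6, 16.4 for Ptpn2, 13.2 for Ptpn22, 3.58 for Ptprj and 2.33 for Ptpn1. Thus Ptpn1, the fourth gene by level, had only 168 to 272 allelic reads per replicate, whereas Ptprc had 90357 to 92778. Ptprj had 91, 1, 91 and 65 reads, so replicate 2 carries almost no information on its alleles. Low counts were also uneven: of the autosomal genes that had 20 to 39 allelic reads, 36.4%, 84.2%, 45.2% and 13.5% were read from a single allele in replicates 1 to 4. Binomial intervals therefore cover counting error only and are too narrow. The test of the alleles rests on the spread between animals, estimated for each gene in part from all genes tested.

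The allele test called 2 of the 8 phosphatase genes, Ptprc towards C57BL/6 and Ptpn7 towards Castaneus, and did not call 6. Whether reads of both alleles were mapped and assigned equally well was not tested. The allele counts were fitted with edgeR's quasi-likelihood test over all 10268 autosomal genes with at least 20 allelic reads and 1 RPKM on average, a filter that all 8 members passed, with Benjamini-Hochberg adjustment over those genes and a threshold of 5%. By the same rule 28.1% of all autosomal genes were called, 12.4% towards Castaneus and 15.6% towards C57BL/6, so the count of 2 among 8 was close to the background. The order of these directions depended on the scaling: 1278 genes were called towards Castaneus and 1605 towards C57BL/6, but 1481 and 1352 with TMM factors and 1930 and 1883 in DESeq2. The median log2 ratio of Castaneus to C57BL/6 was -0.05 for the 8 phosphatase genes and -0.04 for all autosomal genes tested. For all autosomal genes it was 0.008 with TMM factors and 0.002 in DESeq2.

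Ptprc gave fewer reads from the Castaneus allele in all animals. It had 41483, 42479, 39237 and 41786 Castaneus reads beside 51295, 48393, 51120 and 50871 C57BL/6 reads in replicates 1 to 4. The Castaneus shares were 44.7%, 46.7%, 43.4% and 45.1%, with a mean of 45.0% ± 1.37 (SD, n = 4), and all of them lay below 50%. The log2 ratio was -0.27 with a standard error of 0.03, which makes the C57BL/6 allele 1.20-fold higher (edgeR's quasi-likelihood test, adjusted p = 5.21e-05). Over 13 alternatives the adjusted p ran from 8.68e-16 to 0.0791, the latter with limma on the log2 ratios, where the call was lost and 17.6% of all autosomal genes were called. The uncharacterised transcript A130071D04Rik overlaps Ptprc on the same strand, had 42.1% ± 2.76 of its reads from Castaneus, and cannot be separated from it where the exons overlap.

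Ptpn7 was read mostly from Castaneus in replicates 1 and 2 and nearly equally from both alleles in replicates 3 and 4. It had 365, 334, 1246 and 1244 C57BL/6 reads in replicates 1 to 4 and 2069, 1928, 1428 and 1415 Castaneus reads. The Castaneus share was 85.0%, 85.2%, 53.4% and 53.2%, each above 50%, and the exact Clopper-Pearson 95% intervals spanned 83.5% to 86.7% in replicates 1 and 2 and 51.3% to 55.3% in replicates 3 and 4. The sum of both alleles was similar in all animals, at 2434, 2262, 2674 and 2659 reads. Split by these shares, the C57BL/6 part of the RPKM was 1.10, 1.12, 2.85 and 3.16 and the Castaneus part 6.25, 6.48, 3.26 and 3.60. The total was 6.11 to 7.60 RPKM. Since the parts are this total split by the share, their larger movement between animals follows from the shares and is not a separate result. The log2 ratio over all 4 animals was 1.35 with a standard error of 0.39 (edgeR's quasi-likelihood test, adjusted p = 0.0250). Leaving out replicate 1 ended the call (edgeR, adjusted p = 0.182, log2 ratio 0.94, 19.7% of all autosomal genes called). DESeq2 gave an adjusted p of 0.0549, with 37.1% of all genes called, and limma one of 0.170. The standard error was 0.61 in DESeq2 and 0.56 in limma, against 0.39 in edgeR. The call held in 10 of 13 alternatives, among them the fit with no replicate block, where 20.5% of all genes were called, and the lowest adjusted p was 8.94e-12, with no filter on low values. With an SD of 18.4 points, the share of Ptpn7 varied more between animals than that of 99.8% of the 3645 genes of like depth, that is with 0.5 to 2 times its allelic reads, whose median SD was 3.35 points. The summed myeloid markers were also higher in replicates 1 and 2, at 77.2 and 121 RPKM, than in replicates 3 and 4, at 54.0 and 44.3 RPKM. Lyz2, the highest of them, was read 51.7%, 55.6%, 56.7% and 57.2% from Castaneus, and the part of these cells in the Ptpn7 shares was not tested.

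**Figure D2:**
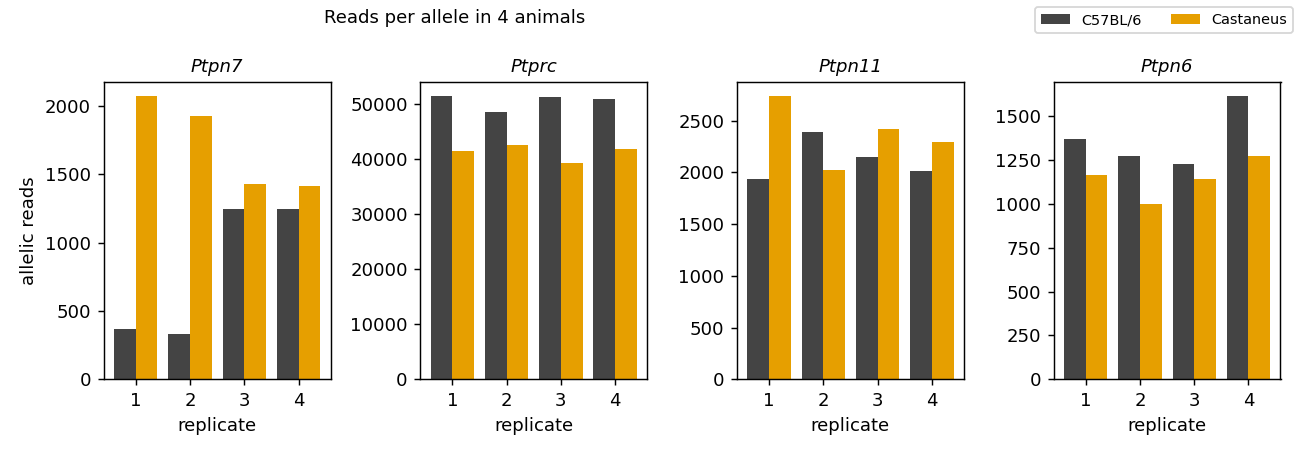
Allelic reads (linear axes from 0, a separate scale per gene) from the C57BL/6 and the Castaneus allele of Ptpn7, Ptprc, Ptpn11 and Ptpn6 in replicates 1 to 4. For Ptpn7 the C57BL/6 bars are 365 and 334 reads in replicates 1 and 2 and 1246 and 1244 in replicates 3 and 4, while for Ptprc the C57BL/6 bar is the taller in every replicate.

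Most genes beside Ptpn7 were also read more from Castaneus in replicates 1 and 2 than in replicates 3 and 4. The alleles are named as the files name them. Whether the maternal chromosome of each animal was C57BL/6 over this stretch was not tested, and if it was not, the reads and shares of Ptpn7 and its neighbours would not compare these strains. The median Castaneus share of the 10 nearest tested genes, 5 on each side, was 73.8%, 77.1%, 47.8% and 49.0% in replicates 1 to 4. Arl8a, a lysosomal GTPase gene that starts 1507 bases beyond the end of Ptpn7, had 89.2%, 92.5%, 45.3% and 48.7%. On the other side Ppp1r12b, a myosin phosphatase subunit gene, had 73.0%, 89.6%, 49.4% and 49.2%, and Klhl12, the farthest of the 5 on that side, 82.1%, 77.1%, 55.5% and 49.98%. Csrp1, further along, had 98.2%, 98.8%, 43.7% and 45.6%. The neighbours named here were picked after their values were seen. The difference between animals was smaller at Timm17a, with 54.5%, 51.1%, 42.1% and 45.9%, and the predicted gene Gm4204 was listed with 0% from Castaneus in all 4 animals. Of the 17 genes within 1 Mb of Ptpn7 that had at least 200 allelic reads, 9 had an SD of the share of at least 10 points, compared with 9.07% of the 8852 autosomal genes of that depth. Within 0.5 Mb it was 4 of 7 and within 2 Mb 12 of 29.

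Ptprc lies on the same chromosome, 2.93 Mb further along, and its share had an SD of only 1.37 points. Of the 5 genes of that depth within 1 Mb of Ptprc, 1 reached an SD of 10 points. The median share of the 10 nearest tested genes around Ptprc ranged over the replicates by 4.74 points, that of the 20 nearest by 12.3 points and that of the 5 within 1 Mb by 10.9 points. Around the 6 genes on other chromosomes, the median share of the 10 nearest tested genes ranged over the replicates by 4.27 points (Ptpn2) to 7.73 points (Ptpn6), against 29.3 points around Ptpn7. Ptprv, another tyrosine phosphatase gene, ends 105 bases before Ptpn7 begins, on the opposite strand. At 0.897 ± 0.406 RPKM it was below the minimum for the test, and its Castaneus share was 77.9%, 75.3%, 72.3% and 52.9% in replicates 1 to 4, so in replicate 3 it differed from that of Ptpn7.

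**Figure D3:**
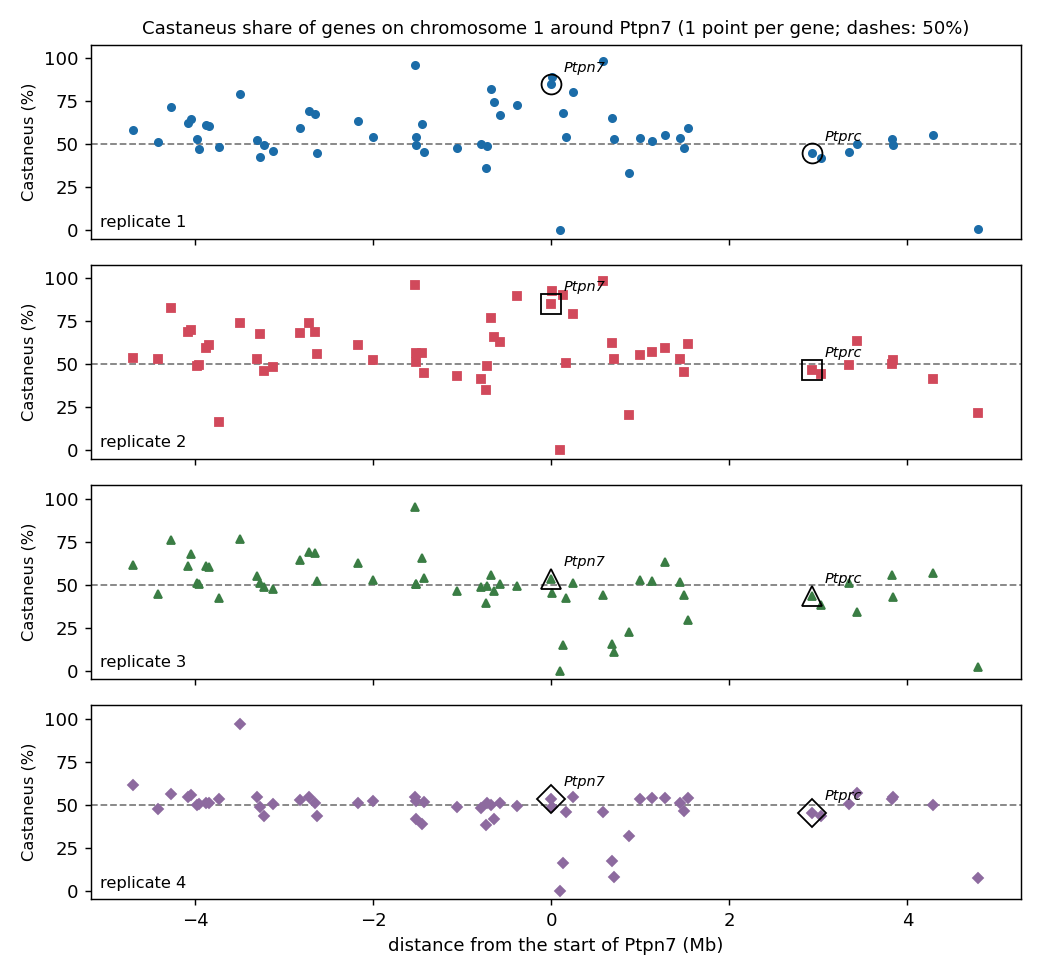
Castaneus share (percent of allelic reads) of 58 genes with at least 200 allelic reads and 1 RPKM against their distance (Mb) from the start of Ptpn7 on chromosome 1, in 1 panel per replicate with Ptpn7 and Ptprc circled. Close to Ptpn7 most points of replicates 1 and 2 lie above 50%, with Ptpn7 at 85.0% and 85.2%, while those of replicates 3 and 4 lie near or below 50%, and Ptprc is at 43.4% to 46.7% in every panel.

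The other 6 genes did not pass the test of the alleles. Ptpn6 had Castaneus shares of 46.0%, 44.01%, 48.2% and 44.1%, below 50% in 4 of 4 animals, with a mean of 45.6% ± 1.97 and a log2 ratio of -0.23 with a standard error of 0.09 (edgeR, adjusted p = 0.0889). It had 2272 to 2885 allelic reads per replicate. Ptpn22 had 48.5%, 47.4%, 46.9% and 49.7%, with an SD of 1.24 points where genes of like depth had a median of 3.45 points, and its log2 ratio was -0.09 with a standard error of 0.09 (edgeR, adjusted p = 0.549). The transcripts Gm15472 and Gm43065, annotated inside its introns on the same strand, had 48.8% ± 9.62 and 40.1% ± 3.34.

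The share of Ptpn11 varied more between animals than that of most genes of like depth. Its Castaneus shares were 58.6%, 45.9%, 53.0% and 53.2%, with replicate 2 the only animal below 50%. The SD of 5.21 points was above that of 92.5% of the 2845 genes of like depth, whose median was 2.58 points, and without replicate 2 it was 3.16 points. The log2 ratio was 0.18 with a standard error of 0.10 (edgeR, adjusted p = 0.245), and without replicate 2 it was 0.31 and was called (edgeR, adjusted p = 0.0123, with 30.0% of all autosomal genes called). Without replicate 1 the log2 ratio was 0.06 and was not called (edgeR, adjusted p = 0.726). Over the 13 alternatives the adjusted p ran from 0.0123 to 0.726.

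Ptpn2 had shares of 52.3%, 48.1%, 44.5% and 52.5%, on either side of 50%, and a log2 ratio of -0.01 with a standard error of 0.16 (edgeR, adjusted p = 0.956). Ptpn1 had shares of 38.4%, 32.7%, 49.3% and 29.3%, below 50% in 4 of 4 animals, with a mean of 37.4% ± 8.73. Its log2 ratio of -0.73 was larger in size than that of Ptprc, but with a standard error of 0.38 at a mean of 224 reads it did not pass (edgeR, adjusted p = 0.187). Ptprj had shares of 52.7%, 0%, 56.0% and 47.7%, where the 0% of replicate 2 rests on 1 read, and a log2 ratio of -0.02 with a standard error of 0.62 (edgeR, adjusted p = 0.986). A difference at Ptpn1, Ptprj or Ptpn2 of the size seen at Ptprc was not detectable at these standard errors. Ptpn6, with a log2 ratio of -0.23 close to the -0.27 of Ptprc, was not called either. The genes not called are thus not shown to lack a difference of that size.

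**Figure D4:**
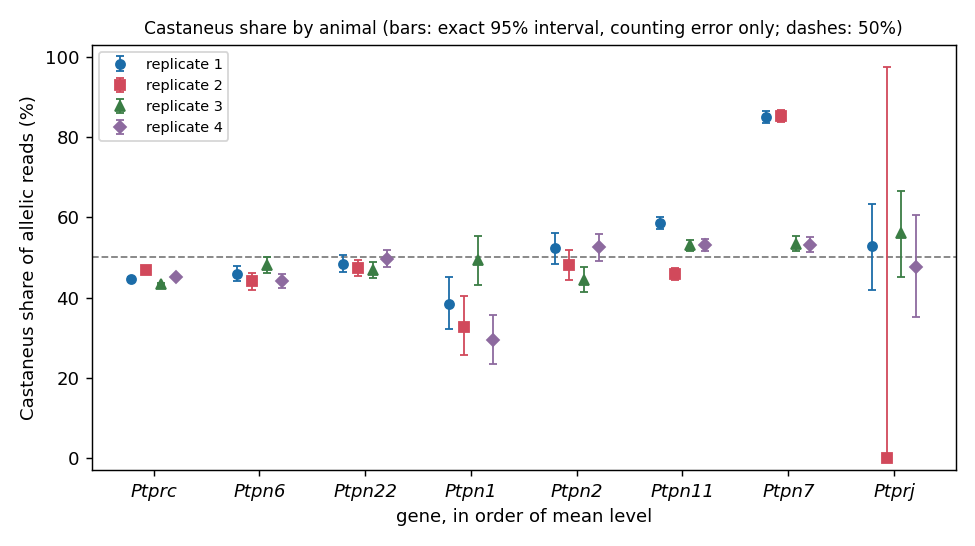
Castaneus share (percent of allelic reads) of the 8 phosphatase genes, with 1 symbol per replicate and exact 95% binomial intervals that cover counting error only. The 4 symbols of Ptprc lie between 43.4% and 46.7%, those of Ptpn7 fall at 85.0% and 85.2% and at 53.4% and 53.2%, and the interval of Ptprj in replicate 2 rests on 1 read.

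The other classical tyrosine phosphatase genes were expressed in part. Of 30 such genes 10 had a mean of at least 1 RPKM, beside 11453 of all 49671 genes, and 6 were listed at 0 in all replicates. Ptpn23, which encodes a phosphatase-like protein of endosomal sorting, was the highest at 33.6 ± 3.72 RPKM, close to Ptpn6. Ptprs, which encodes a receptor-type phosphatase best known from neurons, was present at 30.9 ± 3.06 RPKM. Of the 10 genes tested, 2 were called, both towards Castaneus, a share below the 28.1% of all autosomal genes. With TMM factors 4 were called towards Castaneus, and in DESeq2 4 towards Castaneus and 1 towards C57BL/6. Ptprs had 54.0%, 56.3%, 55.9% and 58.2% of its reads from Castaneus (log2 ratio 0.38, edgeR, adjusted p = 0.000336), and Ptpn13, at 1.32 ± 0.184 RPKM, had 63.0% ± 6.71 (log2 ratio 0.80, edgeR, adjusted p = 0.0126). The shares of Ptpn13, on chromosome 5, were 55.8% and 58.9% in replicates 1 and 2 and 68.8% and 68.7% in replicates 3 and 4. Ptpn3 was the lowest of those tested, at 1.16 ± 0.144 RPKM.

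The kinases and adaptors of antigen receptor signalling were all expressed. The 19 genes of the list each had at least 1 RPKM, with a median of 29.2 RPKM against 16.8 RPKM for the 8 phosphatases and 7.16 RPKM for all autosomal genes tested. Ubash3b, which encodes a phosphatase of another class, was the lowest at 1.69 ± 0.330 RPKM. Of the 19 genes, 3 were called towards Castaneus and 6 towards C57BL/6, beside 12.4% and 15.6% of all autosomal genes. In DESeq2 the numbers were 5 and 6. Among those called, Syk, which encodes a kinase related to ZAP70, had 69.7% ± 1.96 of its reads from Castaneus, while Ubash3a and Ubash3b had 35.2% ± 5.03 and 34.6% ± 7.40. Fyb, an adaptor gene, had 41.1% ± 1.28 (SD, n = 4). Syk was measured at 3.88, 5.04, 3.17 and 2.67 RPKM in replicates 1 to 4, the same order of animals as the summed myeloid markers. The part of myeloid cells in its level and share was not tested. Lck and Csk, whose products are the substrate of CD45 and the partner of PEP, were present at 65.6 ± 2.99 and 44.8 ± 3.66 RPKM and were not called.

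All 9 JAK and STAT genes were expressed, with a median of 51.0 RPKM, and 8 of them were called, 6 towards Castaneus and 2 towards C57BL/6, beside 28.1% of all autosomal genes called. Over the other scalings 5 to 6 were called towards Castaneus and 1 to 2 towards C57BL/6. Stat5a, which encodes a transcription factor activated by the interleukin 2 receptor, was the highest at 84.9 ± 3.16 RPKM, with 53.0% ± 0.569 of its reads from Castaneus. Jak3, which encodes the kinase of the shared cytokine receptor chain, had 57.4% ± 4.38 and Stat5b 55.1% ± 1.39 (SD, n = 4). Tyk2, another JAK kinase gene, had 53.2% ± 1.91.

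Partners of the SH2 domain phosphatases had a median of 3.38 RPKM over 13 genes, 10 of which had at least 1 RPKM. Cd5, which encodes an inhibitory receptor bound by SHP-1, was the highest at 38.0 ± 3.02 RPKM and gave 36.0% ± 1.75 of its reads from Castaneus (log2 ratio -0.81). Pdcd1, which encodes PD-1, was present at 2.83 ± 0.368 RPKM. Of the 9 genes tested 1 was called towards Castaneus and 3 towards C57BL/6, beside 12.4% and 15.6% of all autosomal genes. Pecam1, an adhesion receptor gene, had 75.0% ± 4.98 from Castaneus, Themis, which encodes a protein bound by SHP-1, 38.8% ± 8.86, and Btla, an inhibitory receptor gene, 44.2% ± 4.39. Themis, on chromosome 10, had 30.9% and 31.7% in replicates 1 and 2 and 48.3% and 44.5% in replicates 3 and 4. Gab2 was the lowest of those tested, at 1.90 ± 0.561 RPKM. Among the 3 MAP kinase genes, Mapk14 was the lowest at 15.4 ± 2.28 RPKM, and Mapk3 was called towards Castaneus with 56.0% ± 3.30 of its reads. Ptprcap, which encodes the small protein that binds CD45, was present at 4.24 ± 1.31 RPKM, far below Ptprc, and had 78.3%, 100%, 94.9% and 84.9% of a mean of 406 reads from Castaneus (edgeR, adjusted p = 0.00304).

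The start sites of the phosphatase genes differed in base composition. The window of 300 bases from 250 before to 50 after the start was found for 7 of the 8 genes among 32851 windows of RefSeq on GRCm38.p6, whose median CpG count was 7. The windows of Ptpn1, Ptprj and Ptpn11 held 47, 42 and 37 CpG dinucleotides. Those of Ptpn7, Ptpn6, Ptpn22 and Ptprc held 10, 8, 6 and 4. The word GGGCGG, searched on both strands, was present in Ptpn1, Ptprj, Ptpn11, Ptpn6 and Ptpn7 and in 35.7% of all windows. TATAAA was present in Ptprc and Ptpn22 and in 13.6% of all windows. The words share no letters and cannot overlap, and a match is a description of the sequence, not a binding site.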

How the data were processed

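Total RNA of 4 samples in 1 group was depleted of ribosomal RNA and made into stranded libraries, per the labels' protocols. Files deposited by the authors hold raw read counts per gene and allele and RPKM values of both alleles, per the file headers; the total behind the RPKM scaling was not given in the sources used here. The names STAR 2.7.1a, featureCounts and mm10 come from the submitters' processing notes. The way alleles were assigned, duplicates and the strand setting were not given in the sources used here. Reads shared with overlapping or antisense genes were therefore not separated.

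Both alleles come from the same animal, so edgeR 4.0.16 (R 4.3.3) was fitted with the replicate as a block, an allele term and each allele's autosomal total as library size. Standard errors were derived from the quasi-likelihood F. DESeq2 1.42.0, limma 3.58.1, TMM factors, other filters, no block and leaving out each replicate were alternatives. The edgeR and limma fits were tested on simulated data. The simulated counts had the same spread setting for every gene and lacked the uneven low counts seen here, so that test does not cover them. Positions and exons came from GENCODE M21 on the same build. Shares are means of 4 per-replicate percentages. Other steps used Python 3.11.15.

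The members and lists were chosen with earlier results of these data known. All 8 members are named, and of each other list the highest gene, the lowest tested and up to 4 called with the largest ratio; genes outside this rule are background to a member, and some genes the rule names are not reported here. No genes were named by likeness of pattern, since 4 replicates are too few. Whether replicates were separate cultures beyond their label as biological replicates is not stated, and p-values measure only the spread between these samples. In the allele tests the spread of each gene was estimated in part from all genes tested.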

Additional observations from a re-analysis of the deposited data

Results flagged for a closer look

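Among the 16 sets of 4 values looked at (RPKM and Castaneus share of each of the 8 genes), 2 held a replicate that stood apart from the other 3 by Dixon's criterion, and chance alone gives about 1 in 20. The Castaneus share of Ptprj was 0% in replicate 2 and 47.7% to 56.0% in the others, where replicate 2 had 1 allelic read. The level of Ptpn11 was 11.5 RPKM in replicate 2 and 9.84 to 10.1 RPKM in the others, and replicate 2 was also the animal with the lowest Castaneus share of that gene, 45.9%.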

How the results depend on the processing

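The allele calls of the phosphatases depended on the tool and on single animals. Against 2 called in edgeR, DESeq2's Wald test called 1 (Ptprc, 5 at an unadjusted p under 0.05) and limma on the log2 ratios 0 (3 at an unadjusted p under 0.05); leaving out each replicate gave 1 to 3. Over all autosomal genes, limma called 1806 in place of 2883 and leaving out each replicate gave 1960 to 3058. With no replicate block 2100 autosomal genes and the same 2 phosphatases were called. The sign of 2 uncalled genes turned: Ptpn2 had a log2 ratio of 0.0335 with TMM factors and 0.0271 in DESeq2, and -0.0745 to 0.0806 with each replicate left out. Ptprj had 0.0316 with TMM factors, 0.0615 in DESeq2, 0.16 with no replicate block, and -0.22 to 0.15 with each replicate left out. The order of the levels was the same in all 7 alternatives, and overlapping neighbours numbered 1 after rescaling to the same median and 1 to 2 with each replicate left out, in place of 2. The genes whose neighbours' median share ranged over the replicates by over 10 points numbered 1 with 5 neighbours on each side, 2 with 10, and, in windows chosen after the data were seen, 2 within 0.5 Mb, 2 within 1 Mb and 0 within 2 Mb; these were Ptpn7 and, where there were 2, Ptprc. The genes whose share varied more than the median gene of like depth numbered 4, and 4 to 5 with each replicate left out. Depth limited Ptprj and Ptpn1 most.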

Other observations

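The Castaneus share varied between animals on a longer stretch of chromosome 1 than the immediate neighbourhood of Ptpn7, with another set of replicates standing apart. Snrpe, which encodes a spliceosome core protein and lies 1.53 Mb before Ptpn7, had 96.2%, 96.3%, 95.3% and 54.3% from Castaneus in replicates 1 to 4. Rbbp5, which encodes a subunit of histone methyltransferase complexes, had 67.4%, 68.7%, 68.6% and 50.9%, and Dstyk, a kinase gene, 69.4%, 73.9%, 68.8% and 54.5%. Between these genes and Ptpn7, Adipor1 had 49.2%, 49.1%, 49.3% and 51.0%. On the far side of Ptpn7, Kif21b, a kinesin gene 0.999 Mb away, had 53.5%, 55.4%, 52.6% and 53.2%. Lad1 and Tnnt2, between Ptpn7 and Kif21b, had 65.1%, 62.8%, 15.6% and 17.0%, and 52.8%, 53.3%, 10.7% and 7.90%. Their allelic reads also differed between animals, at 6646, 4662, 18868 and 17267 for Lad1 and 600, 347, 2996 and 2634 for Tnnt2. Those of Ptpn7 were similar in all animals, at 2434, 2262, 2674 and 2659. All the genes named in this paragraph except Ptpn7 were picked after their values were seen.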
